A study of Homo sapiens with 8 samples.

Results

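The genes described here are 10 human genes for which different probes of one microarray gave different answers on whether the RNA was bound by Argonaute 2 (Ago2): PKN2, HECTD2, SIK1, RAB18, EIF5A2, RNF141, TUSC2, ATG5, ASPH and KMT2C. They were selected on the ratio of Ago2-bound to total RNA, which differed strongly between their probes in these samples, so the size of that difference is a description and not a finding. The array matched 16551 genes through the transcript identifier of each probe, and these 10 genes were read by 26 of its 41000 probes. Of those 26 probes, 24 passed filters modelled on the study's methods and were retained.

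Argonaute 2 holds a miRNA and is guided by it to mRNAs with a matching site, most often in the 3′UTR, where it lowers their translation and stability. One gene can give rise to several transcripts that end at different places, and a miRNA can bind only those that hold its site. An array probe reads every transcript that contains its short sequence, so probes of one gene can read different sets of transcripts. The miRNA altered in the experiment was miR-155, which is abundant in Hodgkin lymphoma cells. Its mature sequence (RefSeq, GRCh38.p14, chr21:25573983-25574006, plus strand) is shown because the sponge was built to capture it, with the seed (bases 2 to 8), the part that pairs with most targets, in capitals.
hsa-miR-155-5p: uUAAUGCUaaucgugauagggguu

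All samples came from KM-H2, a Hodgkin lymphoma cell line, transduced with a retroviral vector. One population carried the empty vector (EV cells) and the other a sponge for miR-155 (labelled miR-155-sp, here sponge cells), which is a transcript with many miR-155 binding sites. From each population, total RNA (T) and RNA precipitated with an antibody against Ago2 (IP) were measured, which gave 4 RNA samples with 1 sample per group. Each RNA was labelled once with Cy3 and once with Cy5, and these labellings are technical repeats. No difference therefore has a check over biological replicates and no test was possible, and values in parentheses after an IP/T ratio are those of the single dye orientations (first with IP in Cy5 and then with IP in Cy3), as a measure of technical error.

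Only 4 arrays, with 8 channels, were used, and this number limits the precision of all values. The share of spots well above background was 58.9% to 61.9% in the Cy3 channels and 38.8% to 43.4% in the Cy5 channels. The Hodgkin cell markers TNFRSF8, CCL17, IRF4, TRAF1, FSCN1 and MIR155HG were well above background in all 8 channels, whereas CCL22 was not in any. Of 6 markers of other blood cells none was well above background in all 8 channels, CD14 was so in 6 and one probe of CD3E in 4. A probe was retained if it was well above background in at least 4 channels and if the Cy3 and Cy5 signals of every sample differed by at most 2-fold, which left 17912 probes. Signals are given as log2 of the quantile-normalized intensity. They depend on how strongly each probe binds, so the signals of different probes are not amounts of RNA.

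**Figure D1:**
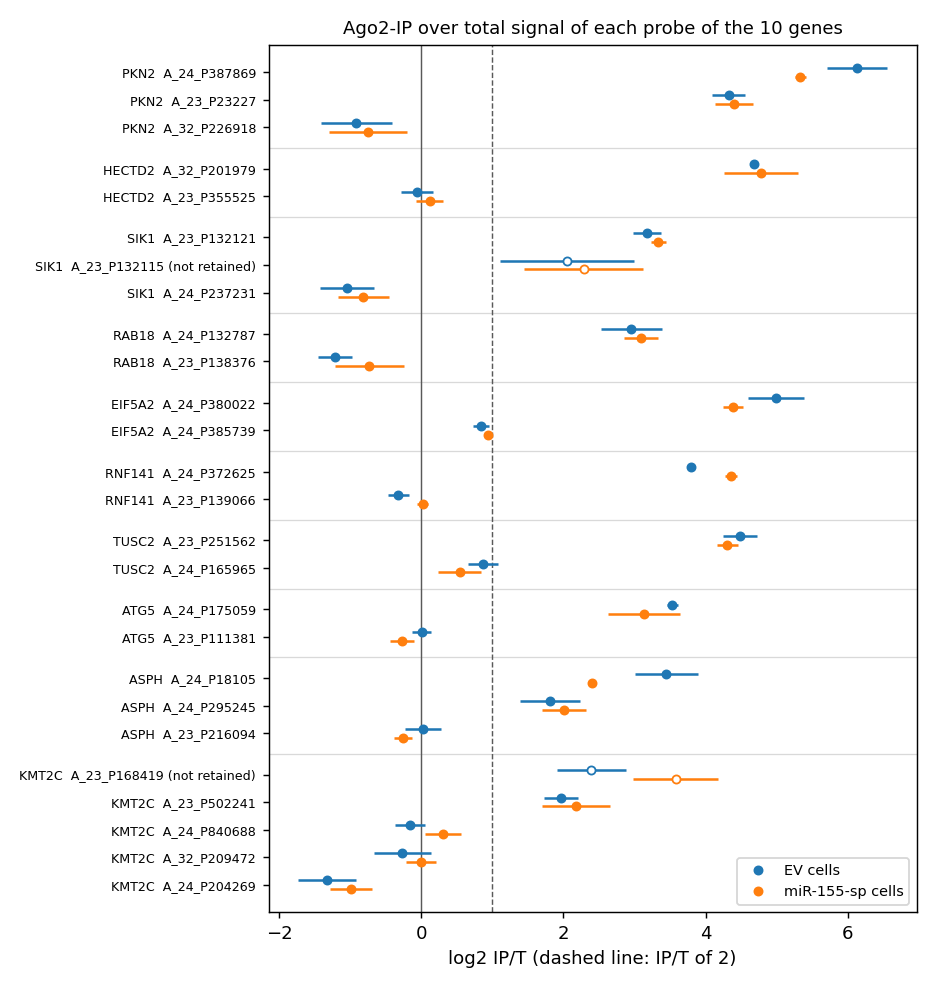
Log2 of the IP/T ratio (x axis) of each of the 26 probes of the 10 genes, in EV cells (blue) and sponge cells (orange, miR-155-sp). Points are means of both dye orientations, horizontal lines join the values of the single orientations, open points mark the 2 probes that were not retained, and the dashed line is an IP/T of 2. In each gene at least one probe lies right of the dashed line and at least one lies left of it. The point of A_24_P387869 of PKN2 rests on total signals that did not pass the background flag.

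A probe with an IP/T of at least 2 was counted as enriched. The genes were selected on differences in this ratio between their probes, so the counts and distances below are a description. The counts include A_24_P387869 of PKN2, which passed the filter through its IP channels alone. In EV cells 12 of the 24 retained probes were enriched, against 14.8% of all retained probes. In sponge cells 12 were enriched, against 15.6% of all. Of the others in EV cells, 9 lay between 0.5 and 2, and 3 lay at 0.5 or less, one each of SIK1, RAB18 and KMT2C (12.9% of all retained probes). In sponge cells none of the 24 was at 0.5 or less (14.1% of all). The distance between the highest and the lowest probe of a gene had a median of 4.13 on the log2 scale (17.5-fold) in the 10 genes and of 0.34 (1.27-fold) over the 2766 genes with several retained probes. All 10 genes had probes at least 4-fold apart, as did 2.31% of the 2766 genes in EV cells and 2.68% in sponge cells. They held 9 of the 10 largest distances. KMT2C was the member with the smallest, 3.29 (9.76-fold), next to IER5 (3.37) and ZNF493 (3.37) just above it and DEF8 (3.24) just below it, none of which is a member.

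**Figure D2:**
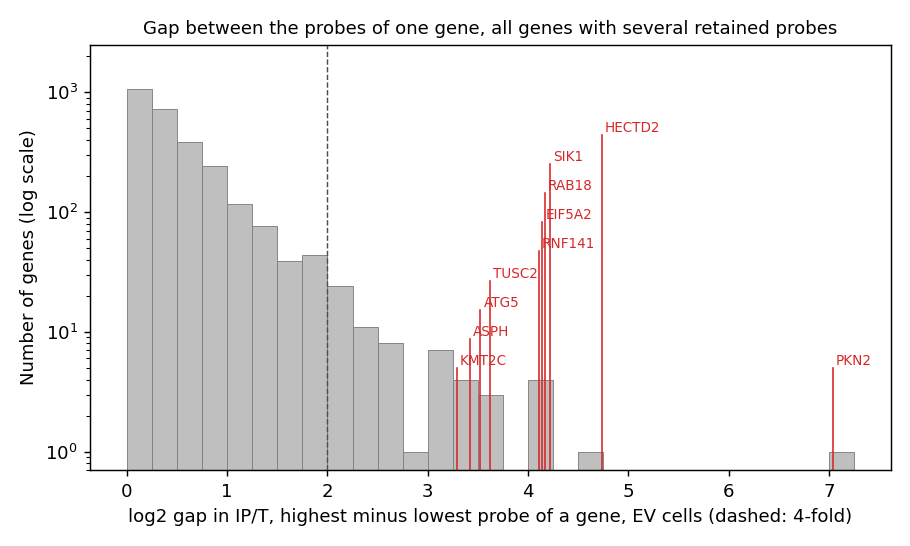
Number of genes (y axis, log scale) by the distance in log2 IP/T between their highest and lowest retained probe in EV cells (x axis), for all 2766 genes with several retained probes. Red lines mark the 10 genes, which lie between 3.29 (KMT2C) and 4.73 (HECTD2) with PKN2 beyond them, and the dashed line is a 4-fold distance. The line of PKN2 rests on total signals of its highest probe that were not well above background.

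Among the kinases, PKN2 had the widest spread. PKN2 is a serine/threonine kinase related to protein kinase C. All 3 of its probes carry the identifier NM_006256. Probe A_32_P226918 had log2 signals of 16.54 in EV total, 15.63 in EV IP, 16.43 in sponge total and 15.68 in sponge IP RNA. It was at or above 98.6% of the retained probes in EV total RNA, and its IP/T was 0.532 (0.754 and 0.376) in EV and 0.595 in sponge cells. Probe A_23_P23227 had signals of 8.27, 12.59, 8.16 and 12.56 in the same order. It was therefore low in both total and high in both IP samples, a ratio of 20.0 (17.1 and 23.5) in EV and 21.0 (17.5 and 25.3) in sponge cells.

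The third PKN2 probe, A_24_P387869, was not well above background in total RNA in either labelling of either population, while its log2 IP signal was 9.69 in EV and 9.52 in sponge cells. Its ratio is therefore a bound, set against the lowest signal well above background in each channel: IP RNA was at least 23.2-fold higher than total RNA in EV cells and at least 18.8-fold higher in sponge cells. With this bound PKN2 had probes at least 43.6-fold apart in EV cells, and between the other 2 probes, both well above background in all 8 channels, the distance was 37.6-fold.

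SIK1, a salt-inducible kinase that phosphorylates coactivators of the transcription factor CREB, was read by 3 probes with 1 identifier (NM_173354). A_24_P237231 was bright and not enriched, with log2 signals of 14.37 in EV total, 13.32 in EV IP, 14.05 in sponge total and 13.23 in sponge IP RNA and an IP/T of 0.484 (0.629 and 0.372) and 0.569 in the 2 populations. A_23_P132121 had signals of 7.30, 10.47, 7.18 and 10.52, and its IP/T was 9.04 (7.92 and 10.3) in EV and 10.1 in sponge cells. Its IP signal stood above its total signal in both populations. In sponge cells its total RNA was well above background in Cy3 but not in Cy5. In Cy3 alone the IP/T was 8.12 in EV and 8.81 in sponge cells. The third probe, A_23_P132115, was not retained because its labellings differed by more than 2-fold. Its single orientations in EV cells were 8.00 and 2.17. Whether these probes also read other genes was not tested.

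HECTD2, a ubiquitin ligase of the HECT class, was one of the 2 genes whose probes name different transcripts. The probe of NM_182765, A_32_P201979, had log2 signals of 5.84 in EV total, 10.52 in EV IP, 5.76 in sponge total and 10.54 in sponge IP RNA, and an IP/T of 25.6 (26.6 and 24.7) in EV and 27.4 (39.4 and 19.1) in sponge cells. Its total RNA was well above background in Cy3 but not in Cy5, and in Cy3 alone the IP/T was 25.6 and 33.3. The probe of NM_173497, A_23_P355525, had signals of 9.96, 9.90, 9.74 and 9.86. Its IP and total signals were thus nearly the same, with an IP/T of 0.962 (1.12 and 0.823) and 1.09. The distance was 4.73 on the log2 scale in EV and 4.66 in sponge cells.

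RNF141, a protein with a RING finger, the domain found in many ubiquitin ligases, had 2 probes with 1 identifier (NM_016422), and both were well above background in all 8 channels. A_24_P372625 had log2 signals of 8.62 in EV total, 12.41 in EV IP, 8.03 in sponge total and 12.39 in sponge IP RNA, whereas A_23_P139066 had 10.81, 10.49, 10.57 and 10.59. The first probe was the brighter one in both IP samples and the dimmer one in both total samples. Its IP/T was 13.8 (14.3 and 13.4) in EV and 20.5 (21.7 and 19.4) in sponge cells, against 0.801 and 1.01 for the other probe.

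RAB18, a small GTPase of the endoplasmic reticulum and lipid droplets, likewise had 2 probes of 1 identifier (NM_021252), both well above background in all 8 channels. For A_24_P132787 the log2 signals were 8.26 in EV total, 11.21 in EV IP, 7.76 in sponge total and 10.86 in sponge IP RNA, an IP/T of 7.76 (10.4 and 5.76) and 8.56. For A_23_P138376 they were 13.00, 11.78, 12.89 and 12.16, an IP/T of 0.431 (0.509 and 0.365) and 0.602. In IP RNA the probes differed by less than in total RNA, where the non-enriched probe was the brighter one by 4.74 on the log2 scale in EV cells.

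ATG5, which is joined to ATG12 and works with ATG16L1 in building autophagosomes, had an enriched probe that was dim in total RNA. A_24_P175059 had log2 signals of 5.61 in EV total, 9.14 in EV IP, 5.90 in sponge total and 9.04 in sponge IP RNA, and its total RNA was well above background in Cy3 but not in Cy5. Its IP/T was 11.6 (11.0 and 12.2) in EV and 8.82 (12.5 and 6.20) in sponge cells, and in Cy3 alone 13.7 and 11.3. A_23_P111381, with the same identifier (NM_004849), had an IP/T of 1.00 (1.10 and 0.912) and 0.833.

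EIF5A2, a relative of the translation factor EIF5A that carries the modified amino acid hypusine, followed the same pattern (NM_020390 for both probes). A_24_P380022 had log2 signals of 5.62 in EV total, 10.61 in EV IP, 6.19 in sponge total and 10.57 in sponge IP RNA, again with total RNA well above background in Cy3 only. Its IP/T was 31.8 (24.2 and 41.6) in EV and 20.9 (23.1 and 18.9) in sponge cells, the second orientation of each pair resting on a total signal not well above background. In the Cy3 labellings alone it was 30.8 and 26.6. The brighter probe, A_24_P385739, stayed just under the threshold for enrichment, at 1.80 (1.95 and 1.66) and 1.92 (1.87 and 1.97).

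TUSC2, a candidate tumor suppressor, was the gene with the brightest enriched probe. A_23_P251562 had log2 signals of 12.05 in EV total, 16.54 in EV IP, 12.13 in sponge total and 16.43 in sponge IP RNA, and in EV IP RNA it was at or above 98.6% of the retained probes. Its IP/T was 22.4 (19.0 and 26.3) in EV and 19.8 (17.8 and 22.0) in sponge cells. A_24_P165965, of the same identifier (NM_007275), had signals of 11.28, 12.15, 11.39 and 11.94 and an IP/T of 1.82 (1.57 and 2.11) and 1.46 (1.18 and 1.80). Both passed the background flag in all 8 channels, and here the enriched probe was not the dimmer one in total RNA.

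ASPH encodes an aspartate beta-hydroxylase and, through alternative transcripts, calcium-handling proteins of the endoplasmic reticulum. Its 3 probes name 3 transcripts. A_24_P18105 (NM_032466) had an IP/T of 10.9 (8.02 and 14.8) in EV and 5.31 (5.14 and 5.48) in sponge cells, with total RNA above background in Cy3 only, where the IP/T was 10.9 and 7.49. A_24_P295245 (NM_032467) was well above background in all 8 channels and had an IP/T of 3.50 (4.69 and 2.62) and 4.04. The lowest probe, A_23_P216094 (NM_004318), was dim in every sample, with log2 signals between 4.995 and 5.25 and no Cy5 channel well above background. Its IP/T was 1.02 (0.857 and 1.22) in EV and 0.838 in sponge cells, and in the Cy3 labellings alone 0.986 and 0.814. Without this probe, the distance in ASPH was 3.11-fold.

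KMT2C, a histone methyltransferase that marks enhancers, had the most probes, 5 with 1 identifier (NM_170606). A_24_P204269 was bright, with log2 signals of 15.70 in EV total, 14.37 in EV IP, 15.49 in sponge total and 14.50 in sponge IP RNA and an IP/T of 0.4001 (0.532 and 0.301) and 0.506. A_24_P840688 and A_32_P209472 lay near 1, with an IP/T of 0.899 and 0.834 in EV and 1.24 and 0.999 in sponge cells. A_23_P502241 was the only retained probe that was enriched, with signals of 5.36, 7.33, 5.36 and 7.55 and an IP/T of 3.90 (3.31 and 4.61) and 4.54 (3.26 and 6.33), its total RNA again being well above background in Cy3 alone, where the IP/T was 4.63 and 3.76. Without A_23_P502241 the distance in KMT2C was 2.25-fold, and without A_24_P204269 it was 4.68-fold. The fifth probe, A_23_P168419, was not retained, and its IP/T was 5.26 (7.39 and 3.75) in EV cells. Stretches of KMT2C are duplicated elsewhere in the genome, so some of its probes may read copies, which was not tested.

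Across the 10 genes, the probe with the higher IP/T was in 8 the dimmer one in total RNA, in EV and in sponge cells, with TUSC2 and ASPH as the exceptions. Among the other genes with several retained probes, the probe with the higher IP/T in EV cells was dimmer in sponge total RNA in 44.5%, and in 68.5% of those 54 with probes at least 4-fold apart. Total signal is a part of the ratio, so this is a description. The highest probes had a median log2 signal of 5.73 in EV total and 10.50 in EV IP RNA, against 11.27 and 11.94 for the lowest probes and 9.37 for total RNA over all retained probes. In total RNA, 7 of the 10 highest probes were not well above background in at least one Cy5 channel, whereas 9 of the 10 lowest probes passed the background flag in every channel. In the Cy3 labellings alone, all highest probes except that of PKN2 were well above background in both fractions. There the distances of all 10 genes were at least 3.47 on the log2 scale in EV cells and at least 3.13 in sponge cells. With normexp background correction and quantile normalization, which draws dim signals together, ASPH (1.52), ATG5 (1.42) and EIF5A2 (1.44) on the log2 scale in EV cells were no longer 4-fold apart, and neither were A_23_P502241 and A_24_P204269 of KMT2C (1.76). The same pair of probes stayed 4-fold apart in the other 6 genes. The IP/T of A_23_P502241 was then 1.37, and that of the enriched EIF5A2 probe 4.24.

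**Figure D3:**
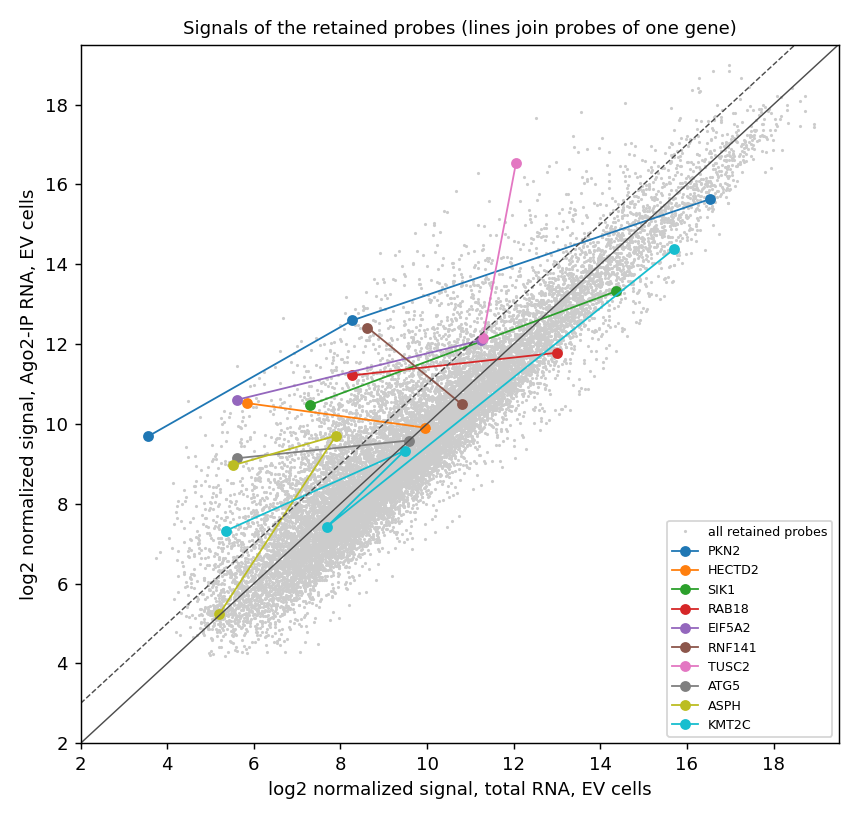
Log2 normalized signal in Ago2-IP RNA (y axis) against that in total RNA (x axis) of EV cells, for all 17912 retained probes (grey) and the 24 retained probes of the 10 genes (colored, lines joining the probes of one gene). The solid line is an IP/T of 1 and the dashed line an IP/T of 2. In 8 genes the probe with the highest IP/T lies left of the lowest, and TUSC2 and ASPH are the exceptions.

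Among the retained probes, those dim in total RNA were enriched more often. A probe dim in total RNA could be retained through its IP channels alone, whereas a probe dim in both fractions could be dropped. How much of this pattern follows from the filter was not tested. When all retained probes were ordered by their signal in sponge total RNA, and split into equal parts of 4478 probes, 26.0% of the dimmest part was enriched in EV cells, followed by 14.96%, 11.1% and, in the brightest part, 7.06%. The 10 genes had 11 probes in the dimmest part, of which 9 were enriched, and 6 in the brightest, of which 1 (the TUSC2 probe) was. The part of probe brightness in the differences was not tested.

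In 8 of the 10 genes the highest and lowest probes carry the same transcript identifier, and HECTD2 and ASPH are the exceptions. Shared identifiers were also the rule over all genes with several retained probes, of which 92.8% had one, and among the 54 other genes with probes at least 4-fold apart 74.1% had one. Probes at least 4-fold apart were found in 1.87% of the 2568 genes with a shared identifier and in 8.08% of the 198 genes whose probes name different transcripts. An identifier names the transcript for which a probe is listed and not the place on it, and the positions of the probes within these transcripts were not analysed here. Whether the probes read transcripts with different ends was not tested.

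The call of a gene as enriched depended on how its probes were combined. The 10 genes were selected on probes that disagree in this ratio, so their counts follow from that choice and are a description. By the highest probe all 10 genes reached an IP/T of 2, by the mean of the log2 ratios of their retained probes 8 did, and by the lowest probe none did. Over the 2766 genes these shares were 22.3%, 16.2% and 12.0%. In 6 of the 10 genes the lowest probe had an IP/T of 1 or less in EV cells, so that one probe was enriched and another was at or below the level of total RNA. This combination was found in 2.46% of the 2766 genes in EV cells. In sponge cells it was found in 6 of the 10 genes and in 3.04% of all. These were not the same 6 genes. By the IP/T of the lowest probe, HECTD2 (1.09) and RNF141 (1.01) were no longer among them, and ATG5 (0.833) and ASPH (0.838) were.

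The second question of the design is whether the miR-155 sponge lowers Ago2 binding. Of the 24 retained probes, the IP/T was lower in sponge than in EV cells in 8 and higher in 16, against 50.3% lower over all retained probes. In the 2 dye orientations alike, 6 probes were lower (30.3% of all retained probes) and 11 were higher (30.6% of all), and the remaining 7 changed in opposite directions. The 6 were both TUSC2 probes, A_24_P387869 of PKN2, A_24_P380022 of EIF5A2, and A_24_P18105 and A_23_P216094 of ASPH. Apart from TUSC2, their total signals in Cy5 were not well above background. Among the 11, this held only for A_23_P132121 of SIK1, in sponge cells. The median size of the change, regardless of direction, was 0.26 on the log2 scale in these probes and 0.17 over all. Over all genes with several retained probes, the median distance between probes was 0.34.

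A single probe changed at least 2-fold, A_24_P18105 of ASPH, which was lower in sponge cells (0.698% of all retained probes were), and none was at least 2-fold higher (0.748% of all). Its log2 IP/T differed by -1.04 (-0.64 and -1.44 in the single orientations). This call rests in part on Cy5 total signals not well above background. In the Cy3 labellings alone, log2 IP signals of 9.18 in EV and 8.49 in sponge cells stood against total signals of 5.73 and 5.59, a difference of -0.54 in IP/T. With normexp it was -0.42 after quantile normalization and -0.52 after loess and Aquantile, so the change stayed below 2-fold in all of these. When channels were only set to a common median, the change was -1.09 and so still beyond 2-fold. The other ASPH probes differed by 0.20 (A_24_P295245) and -0.29. With normexp, loess and Aquantile all 3 were lower (-0.52, -0.17 and -0.05), but with normexp and quantile normalization A_24_P295245 differed by 0.014.

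The enriched probe of EIF5A2 differed by -0.60, with -0.07 and -1.14 in the single orientations, but by only -0.21 in the Cy3 labellings, where its total signal was measured, and by 0.05 with normexp and quantile normalization. That of ATG5 differed by -0.39, with opposite directions in the orientations (0.19 and -0.97) and -0.28 in Cy3 alone. For the highest PKN2 probe no change in the ratio can be given, since total RNA was not well above background, and its log2 IP signal differed by -0.16. This probe counts among the 8 that were lower and among the 6 that were so in both orientations. Both probes of TUSC2 were lower in both orientations, by a log2 IP/T of -0.18 and -0.32, and both probes of RNF141 were higher in both, by 0.57 and 0.34.

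Apart from PKN2, the probes that were highest and lowest in EV cells were also so in sponge cells in the other 9 genes. For PKN2 the order of the 2 enriched probes in sponge cells is not known, since the bound of 18.8 lies below the 21.0 of A_23_P23227. All 10 genes kept a distance of at least 4-fold between the same pair of probes in sponge cells, with a median of 3.80 on the log2 scale. Leaving out PKN2, for which both distances are bounds, the distance was smaller in sponge than in EV cells in 7 of 9 genes, against 60.5% of all genes with several retained probes, where the highest and lowest probes had been picked in EV cells. RNF141 and TUSC2 had larger distances in sponge cells (4.34 against 4.11, and 3.76 against 3.62). With PKN2 again left out, the highest and lowest probes changed in the same direction in 8 of the 9 genes, against 57.0% of all. Among these, the highest probes of HECTD2, RAB18, ATG5 and KMT2C changed in opposite directions in the 2 dye orientations. With normexp and quantile normalization, the directions differed in HECTD2 (-0.22 and 0.07), RAB18 (-0.06 and 0.53) and ATG5 (-0.20 and 0.001). Those of EIF5A2, which differed before, were then the same (0.05 and 0.15).

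**Figure D4:**
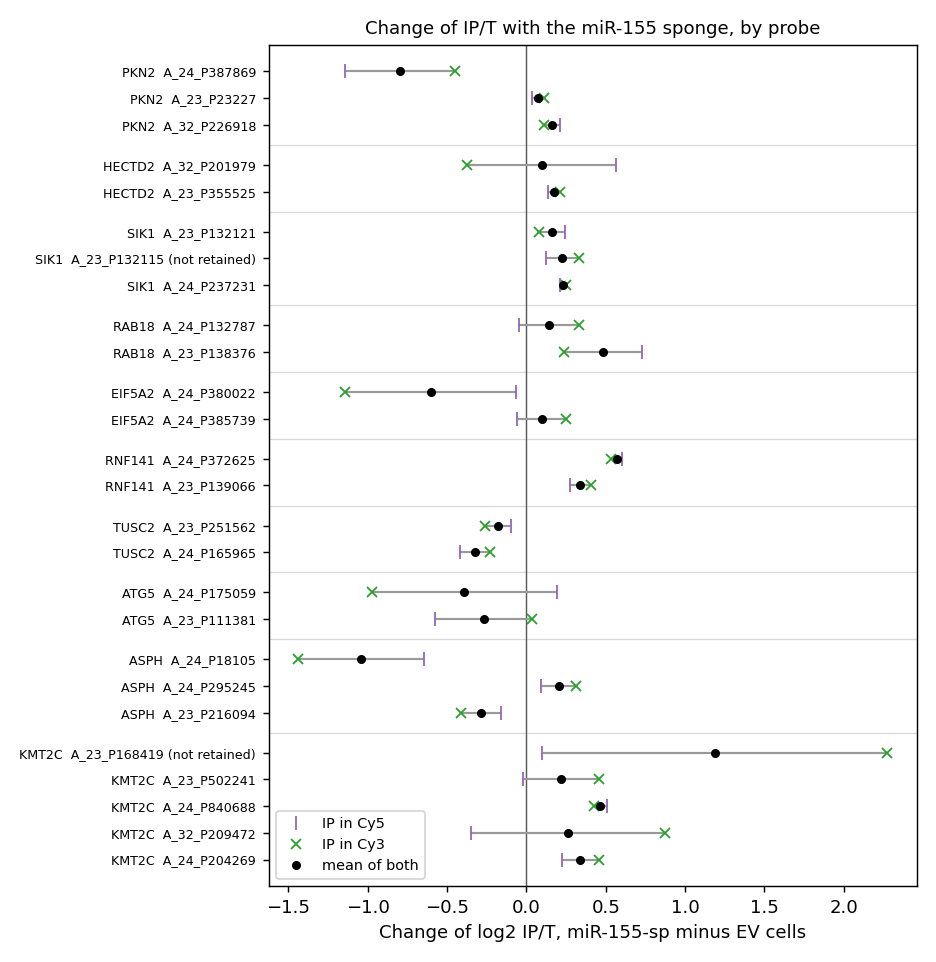
Change of log2 IP/T with the miR-155 sponge, as sponge minus EV cells (x axis), for each of the 26 probes. Black points are the means, ticks and crosses the values from arrays with the IP sample in Cy5 and in Cy3. Of the retained probes A_24_P18105 of ASPH alone lies beyond -1. For A_24_P387869 of PKN2, the plotted change rests on total signals that were not well above background.

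For context, 26 relatives and partners of these genes were examined, such as the other PKN and SIK kinases, the ATG12 conjugation enzymes and the KMT2 family. Of these 23 were on the array and 20 had a retained probe, 26 probes in all. In EV cells 4 of the 26 probes were enriched (14.8% of all retained probes) and 1 was at 0.5 or less (12.9% of all), with a median log2 IP/T of -0.28 against -0.24 over all retained probes. Among the enriched probes were those of ATG16L1 (11.2 with 10.8 and 11.5 in the single orientations), of KDM6A (4.95 with 3.76 and 6.52), a histone demethylase found in complexes with KMT2C, and of KMT2B (2.501). ASPHD1 had the IP/T of 0.440. In the 6 of these genes with several retained probes no pair was 4-fold apart, and the largest distance was 1.11 on the log2 scale, in SIK3.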

How the data were processed

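Spot intensity values had been made by the authors, per the file headers, with Agilent Feature Extraction 10.7.3.1 (the labels name 10.5.1.1), which corrects background and dye bias. The authors also deposited log2 values of 16065 probes, which held 23 of the 26 member probes and differed from those computed here by a median of 0.00056. Scale and direction were the same, and each array's channel was taken by its dye label.

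Outlier and control spots were left out, and the log2 signals of the 8 channels were quantile-normalized, which removes an overall difference between fractions. The filters are those named above. Each ratio is the mean log2 IP signal of both labellings minus the mean total signal. No test was run because each group is 1 RNA. Genes were matched through RefSeq identifiers (table of GRCh38.p14, 23958 of 41000 probes). No coordinates of genes are given, as the array was designed on another build.

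The members and gene lists were chosen with earlier results of these data known. All probes of the members are named, as are relatives with a retained probe at least 2-fold from 1 in IP/T (one is not reported here), and the 5 other genes with the largest distances whose probes passed the background flag in all 8 channels. Genes next to the smallest member distance, and SIK3, were named after their values were seen. Alternatives covered normalization, normexp background correction (limma 3.58.1, R 4.3.3, offset 50), the authors' values, both filters, averaging, and single labellings and orientations. The code, for Python 3.11.15 (numpy 2.4.6, pandas 2.3.3), was tested on simulated data.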

Additional observations from a re-analysis of the deposited data

How the results depend on the processing

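The distances were smaller after normexp background correction, which adds an offset of 50 to every signal and so by construction draws ratios of dim probes toward 1. The median log2 IP/T of all retained EV probes moved from -0.24 to -0.09 with normexp and quantile normalization and to -0.01 with normexp, loess and Aquantile. With the former, 7 of the 10 genes had probes at least 4-fold apart, KMT2C (2.35) only through A_23_P168419, which was not retained in the report, and HECTD2 (2.44), RAB18 (3.25), RNF141 (3.28) and TUSC2 (3.58) were among them on the log2 scale, whereas ASPH (1.52), ATG5 (1.42) and EIF5A2 (1.44) fell below 4-fold. The median distance was then 2.58 in EV and 2.41 in sponge cells, and 1.27% and 1.08% of all genes were 4-fold apart. With the latter, 7 genes kept several probes, of which 5 in EV and 4 in sponge cells were 4-fold apart (0.994% and 0.823% of all; KMT2C in EV cells again through A_23_P168419), with medians of 2.53 and 2.42, with 7 and 4 enriched probes and with the highest probe dimmer in 5.

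With probes well above background in all 8 channels, 5 genes kept several probes, of which 4 in either population were 4-fold apart. Of all genes, 1.62% were so in EV and 1.78% in sponge cells. In either population 5 probes were enriched, 3 probes were lower in sponge cells and the highest probe was dimmer in 4 genes. With agreement within 1.5-fold, 5 genes were 4-fold apart in either population, against 1.97% of all in EV and 2.18% in sponge cells. There were 6 enriched probes in either, the highest probe was dimmer in 4 genes, and the median was 3.60 in sponge cells. Fewer member probes remained under both filters by construction. Other medians were, in sponge cells, 3.64 when channels were only set to a common median, 3.99 with no agreement filter and 4.01 with IP in Cy3 alone, and in EV cells 3.64 with IP in Cy5 alone, and the cause was not tested. With a single labelling, the median ranged from 4.05 to 4.12 in EV and from 3.84 to 3.92 in sponge cells, and 2.71% to 3.001% and 2.46% to 3.65% of all genes were 4-fold apart. There were 12 to 13 enriched probes in either population, 10 to 11 lower probes, 10 genes 4-fold apart and 8 with the highest probe dimmer. With the authors' values 9 genes were 4-fold apart, as the lowest ASPH probe is not among those values. Of all genes, 2.17% in EV and 2.42% in sponge cells were then 4-fold apart. For the alternatives, shares of enriched probes over all retained probes are not given here. Of 291 single probe values over the 13 alternatives, 8 (EV cells) crossed the threshold of 2, and 24 of 291 sponge changes took the other sign. No paired analysis was possible because each group is 1 RNA and the replicate numbers only name its labellings.

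Low signal in Cy5 limits the ratios of the dim probes, and without biological replicates no change with the sponge can be set against the spread between cultures.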

Other observations

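Outside the 10 genes, the 5 genes with the largest distances whose probes were above background in every channel were ZNF493, IER5, DEF8, PPM1A and PIP5K1C. ZNF493, a zinc finger gene, had an IP/T of 22.9 (23.5 and 22.3 in the single orientations) and 2.21 for probes that name different transcripts, so both were enriched. PPM1A, a protein phosphatase, had 7.94 and 0.856, and DEF8 had 3.23 and 0.341, each with different transcripts named. PIP5K1C, a kinase of membrane lipids, had 2.53 and 0.297 for probes of 1 identifier. IER5, an immediate early gene, had 1.64 and 0.159 for probes of 1 identifier, so neither was enriched. In sponge cells the same probes of IER5 had 1.36 and 0.206, and those of PPM1A 7.01 and 0.775.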
